A study of Mus musculus with 15 samples.

Results

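Kit, insulin and growth factor receptors of pancreatic islet cells were described here through 10 genes: the receptors Kit, Insr, Igf1r, Prlr, Ghr, Met and Egfr, the Kit ligand gene Kitl, and the adaptor genes Irs1 and Irs2. Each gene was read from the transcript cluster, the array's unit of probes, that the platform annotation gives to that gene alone, and where there were several, from the cluster with the highest mean over 15 arrays. By this rule 9 of the 10 genes were measured, among 19938 genes in all. No cluster was named for Prlr alone, so the prolactin receptor was not analysed here. The set was selected on the measured Kit signal, known to be higher in the Pdx1-deficient arrays than in the beta arrays, so the differences between those 2 groups are given as a description with no p-value, and calls there are only counted, beside the share of all genes. The comparisons of alpha with beta cells and of Pdx1-deficient with alpha cells were tested for the other members. For Kit they reuse arrays on which it was selected, the beta arrays in the one and the Pdx1-deficient arrays in the other, so Kit is described throughout with no p-value.

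The study profiled sorted mouse islet cells on Affymetrix Mouse Gene 1.0 ST arrays, 5 per group, and its title asks whether Pdx1, a homeodomain transcription factor of beta cells, represses an alpha-cell program. The Pdx1-deficient cells (PKO), which the labels also call reprogrammed, were taken 5 days after tamoxifen. Alpha cells, which make glucagon, and beta cells, which make insulin, were the controls, sorted for YFP from mice 2 months old. The labels give alpha samples the genotype RIP-CreER; Pdx1fl/+, RosaYFP and beta samples glucagon-Cre; RosaYFP. This is the reverse of the cells in which an insulin promoter and a glucagon promoter usually drive a Cre, and groups were therefore taken from the titles. If the genotype on the alpha samples holds, they carried 1 floxed Pdx1 allele. If the alpha and beta genotypes were exchanged, the beta samples carried it, and they are the reference of both comparisons with beta cells. All 3 groups are labelled as a mixed B6 and BALB/C background. The sources used here do not give the exon deleted, the full alleles, the driver and the sort of the Pdx1-deficient cells, or whether controls received tamoxifen. They also do not say that samples came from separate animals, and the spread behind every p-value is that between these samples and may be technical.

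Kit is a receptor tyrosine kinase: its ligand stem cell factor, the product of Kitl, pairs Kit molecules at the cell surface, and the paired receptors phosphorylate each other and recruit PI3-kinase and RAS signalling. The insulin receptor (Insr) and the type 1 insulin-like growth factor receptor (Igf1r) act mainly through the docking proteins IRS1 and IRS2, which carry the signal to PI3-kinase and AKT. Met binds hepatocyte growth factor and Egfr binds the epidermal growth factor family. The growth hormone receptor (Ghr) and the prolactin receptor have no kinase of their own and signal through JAK2 and STAT5. In rodent islets these pathways are known for their part in beta-cell growth and survival, and prolactin signalling for beta-cell expansion in pregnancy.

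The deposited values are signals on what their range, 2.11 to 13.45, shows to be a log2 scale, with array medians between 5.88 and 6.05. Means of 9 beta-cell markers, Pdx1 among them, were 8.73 to 10.19 in Pdx1-deficient, 8.47 to 9.31 in alpha and 10.05 to 10.38 in beta arrays. Those of 8 alpha-cell markers were 8.48 to 8.74, 8.71 to 9.53 and 7.98 to 8.17 in the same groups. As means, both lists thus ran with the titles. Singly, 8 of 9 beta-cell markers averaged lower and 8 of 8 alpha-cell markers higher in alpha than in beta arrays. The exception was the insulin gene Ins2, at 12.00 in alpha and 11.90 in beta arrays. The glucagon gene Gcg averaged 12.74 in alpha and 12.35 in beta arrays. Pdx1 read 9.12, 7.83, 7.68, 6.53 and 7.59 in Pdx1-deficient arrays, 8.15, 7.98, 8.21, 7.70 and 7.27 in alpha arrays, and 8.85, 9.33, 9.26, 9.02 and 9.26 in beta arrays. The array labelled Pdx1-deficient replicate 1 thus had a beta-like Pdx1 signal, and its beta-cell marker mean, 10.19, lay among those of the beta arrays. In its group, alpha replicate 2 had the lowest alpha-cell marker mean, 8.71, and the array labelled alpha replicate 5 had an acinar marker mean of 10.47, where the other alpha arrays had 6.19 to 7.10. Pdx1-deficient replicate 1 and alpha replicate 2 are called the arrays in doubt. For the tested members, calls that change when either is left out are given both ways. For other genes such changes are given only in part.

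The sequences just upstream of the RefSeq transcription starts are shown for Kit and Igf1r. Kit is the member on which the set was selected, and Igf1r was past the threshold between alpha and beta cells. Each run is the 250 bases before the start in RefSeq (GRCm38.p6), written 5′ to 3′ on the gene's strand, with matches to the GC box GGGCGG or its complement CCGCCC in capitals. Kit lies at chr5:75574737-75574986 (plus strand) and Igf1r at chr7:67952007-67952256 (plus strand).
Kit: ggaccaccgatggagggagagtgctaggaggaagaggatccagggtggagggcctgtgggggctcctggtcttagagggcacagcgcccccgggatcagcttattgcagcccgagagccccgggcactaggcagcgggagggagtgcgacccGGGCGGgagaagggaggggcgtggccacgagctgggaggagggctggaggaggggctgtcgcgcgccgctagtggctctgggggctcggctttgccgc
Igf1r: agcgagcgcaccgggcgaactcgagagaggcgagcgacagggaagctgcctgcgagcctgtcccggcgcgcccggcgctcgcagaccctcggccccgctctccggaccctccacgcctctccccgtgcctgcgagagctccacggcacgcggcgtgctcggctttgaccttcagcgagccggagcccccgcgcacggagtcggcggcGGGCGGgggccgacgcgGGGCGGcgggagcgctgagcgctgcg
The Kit window is 70.8% G and C and holds 1 GC box, and the Igf1r window is 77.6% G and C and holds 2. Entries were present for 9 of the 10 members, with 13 windows in all. Of the 13, 9 held GGGCGG or CCGCCC, against 32.7% of 32851 mouse promoter windows of the same length. Kit has 2 of these windows, of which the first is shown. They overlap and hold the same GC box, so they are not separate in that count. The homeodomain core TAAT or ATTA, counted with overlaps, had no match in the Kit and Igf1r windows. It was found in 2 of the 13 windows: that of Egfr, with 1 match, and that of 1 Prlr start, with 6. Of all promoter windows 54.9% held TAAT or ATTA. No binding was measured in these data, and a match is a match of letters only.

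Kit, the receptor for stem cell factor, differed more from beta cells than any other member did, both in Pdx1-deficient and in alpha cells. Kit was selected on the first of these differences, and the second reuses the same beta arrays. Its rank among the members is therefore only a description. Its log2 signal was 6.49, 7.25, 7.97, 7.36 and 8.35 in Pdx1-deficient arrays, 7.78, 6.92, 7.18, 7.27 and 7.42 in alpha arrays, and 6.44, 5.47, 5.80, 5.86 and 6.03 in beta arrays. Every alpha array lay above every beta array, whereas Pdx1-deficient and alpha arrays overlapped. The lowest Pdx1-deficient value, 6.49 in replicate 1, the array with beta-like Pdx1, lay just above the highest beta value. Kit was 2.63-fold higher in alpha than in beta cells, a difference of 1.39 on the log2 scale (SE 0.29, 95% interval 0.78 to 2.01). When single arrays were left out this difference lay between 1.28 and 1.53. The difference of Pdx1-deficient from alpha cells was 0.17 (95% interval -0.44 to 0.78), an interval that leaves room for a difference in either direction. Among fits that leave out 1 Pdx1-deficient array, it was 0.42 with replicate 1 omitted, 0.0488 with replicate 3 omitted and -0.0474 with replicate 5 omitted. Pdx1-deficient minus beta was 1.56 (SE 0.29), or 2.96-fold, and 1.81 without the array labelled Pdx1-deficient replicate 1. In RNA pooled from many cells, more cells with Kit and more Kit RNA per cell cannot be told apart.

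**Figure D1:**
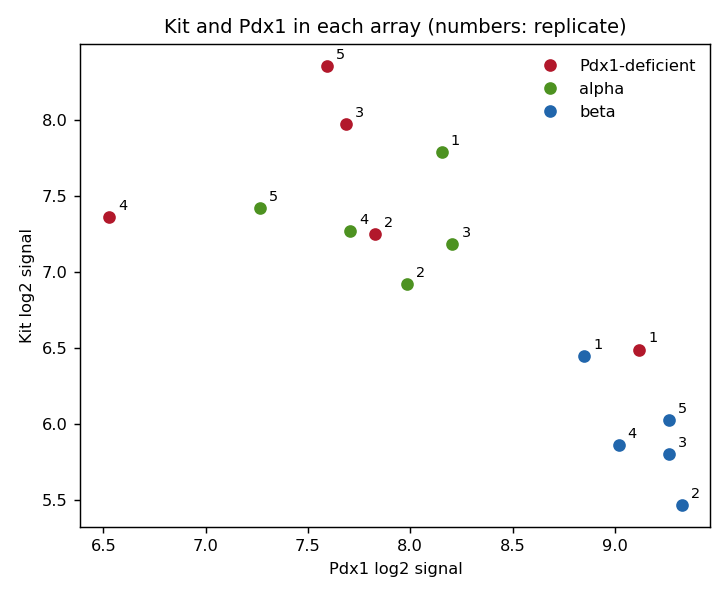
Kit log2 signal on the vertical axis against Pdx1 log2 signal on the horizontal axis, 1 point per array, coloured by group. The beta arrays sit together at high Pdx1 and low Kit, and Pdx1-deficient replicate 1, with Pdx1 at 9.12 and Kit at 6.49, lies beside them.

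Over the 15 arrays Kit and Pdx1 had a Pearson r of -0.808, given as a description because the points fall by group. Irs2 had the highest r with Kit among the members (0.604), followed by Kitl (0.364), while Insr (-0.05), Ghr (-0.533), Irs1 (-0.539), Igf1r (-0.565), Met (-0.621) and Egfr (-0.652) ran flat or the other way. Among genes above the median of all genes, the 6 most like Kit were Wnk2 (0.879), Ccdc136 (0.862), Castor2 (0.859), Sdk1 (0.855), Mapk15 (0.853) and Lingo4 (0.847), each an r over the same 15 arrays. Wnk2 encodes a kinase of the WNK family that regulates ion transport. It averaged 7.24 in Pdx1-deficient, 7.15 in alpha and 6.69 in beta arrays. The difference of alpha from beta cells was 0.46 for Wnk2, 0.30 for Ccdc136, 0.78 for Castor2, of the CASTOR arginine-sensor family, 0.35 for Sdk1, 0.45 for the atypical MAP kinase gene Mapk15 and 0.22 for Lingo4. These genes were picked for following Kit over the same arrays, so their differences follow from the choice and were given no test.

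Kitl, the gene for the ligand of Kit, gave a signal at the low end of every array. It read 4.10 to 4.34 in Pdx1-deficient arrays, 3.83 to 4.67 in alpha arrays and 4.02 to 4.27 in beta arrays, below the array's 25th percentile in 15 of 15 arrays. A level so near the floor can hide a change. The measured difference was 0.10 for alpha minus beta (95% interval -0.16 to 0.36, limma adjusted p = 0.655). For Pdx1-deficient minus alpha it was -0.01 (95% interval -0.27 to 0.25, limma adjusted p = 0.997).

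Insr, the insulin receptor, showed no difference past the threshold. It read 9.48 to 9.91 in Pdx1-deficient arrays, 9.41 to 10.04 in alpha arrays and 9.43 to 10.08 in beta arrays. The 3 groups covered nearly the same range. Alpha minus beta was 0.06 (95% interval -0.24 to 0.35, limma adjusted p = 0.838) and Pdx1-deficient minus alpha was -0.06 (95% interval -0.36 to 0.23, limma adjusted p = 0.99). A further cluster of Insr, with a lower signal, averaged 7.83 ± 0.25, 7.98 ± 0.34 and 8.02 ± 0.18 in Pdx1-deficient, alpha and beta arrays (SD, n = 5 each).

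Igf1r, the receptor for IGF1 and IGF2, fell in alpha compared with beta cells. Its signal was 7.34, 6.61, 7.32, 6.79 and 6.98 in Pdx1-deficient arrays, 6.26, 6.70, 6.38, 6.97 and 6.54 in alpha arrays, and 6.90, 7.17, 7.52, 7.85 and 7.22 in beta arrays. Alpha and beta arrays met at 6.97 and 6.90, and the Pdx1-deficient arrays overlapped with both. The difference of alpha from beta cells was -0.76 (SE 0.19, 95% interval -1.17 to -0.36, limma adjusted p = 0.0385), which is 1.70-fold lower in alpha cells. This call held in 13 of 23 alternatives, with a limma adjusted p between 0.0248 and 0.098. It was lost without any 1 of beta replicates 2 (0.0508), 3 (0.0791), 4 (0.0844) and 5 (0.065) or alpha replicates 1 (0.0892), 3 (0.098) and 5 (0.0783), each value being that fit's limma adjusted p. It was also lost in 3 fits that keep all arrays of both groups and change a setting, with limma adjusted p-values of 0.0514, 0.0596 and 0.0665. Pdx1-deficient minus alpha was 0.44 (95% interval 0.03 to 0.84), which missed the threshold (limma adjusted p = 0.8). Pdx1-deficient minus beta was -0.33 (SE 0.19).

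Irs1 and Irs2, the docking proteins downstream of both receptors, passed in neither tested comparison. Irs2 read 7.43, 7.80, 7.93, 8.52 and 8.22 in Pdx1-deficient arrays, 8.50, 7.93, 8.10, 8.11 and 7.57 in alpha arrays, and 7.97, 7.68, 7.67, 7.43 and 7.90 in beta arrays. All 3 groups overlapped, with the beta arrays in the lower part. Alpha minus beta was 0.31 (95% interval -0.10 to 0.73, limma adjusted p = 0.378). Pdx1-deficient minus alpha was -0.06 (limma adjusted p = 0.994). Irs1 read 5.92 to 6.67 in Pdx1-deficient arrays, 5.99 to 6.83 in alpha arrays and 6.05 to 7.16 in beta arrays, with alpha minus beta at -0.18 (95% interval -0.62 to 0.27, limma adjusted p = 0.647) and Pdx1-deficient minus alpha at -0.08 (limma adjusted p = 0.994). The cluster chosen for Irs1 lists 1 GenBank mRNA record, and the one that lists the RefSeq transcript had a lower signal. That second cluster averaged 6.06 ± 0.39 in Pdx1-deficient, 5.78 ± 0.34 in alpha and 5.97 ± 0.31 in beta arrays (SD, n = 5 each), so that Pdx1-deficient minus alpha turned to 0.28 (limma adjusted p = 0.939).

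Ghr, whose product takes up the growth hormone signal and passes it to JAK2, depended on 1 array. It read 10.18, 9.89, 9.88, 9.61 and 9.68 in Pdx1-deficient arrays, 9.01, 10.16, 9.06, 8.88 and 8.89 in alpha arrays, and 9.77, 10.20, 9.99, 10.26 and 9.68 in beta arrays. Of the alpha arrays 4 lay below every array of the other 2 groups, and replicate 2, at 10.16, lay with the beta arrays. With all arrays the difference of alpha from beta cells was -0.78 (SE 0.22, 95% interval -1.24 to -0.32), which missed the threshold (limma adjusted p = 0.0545). With alpha replicate 2 left out it was -1.02 (limma adjusted p = 0.000756), and the limma adjusted p lay between 0.000476 and 0.124 over 23 alternatives. Pdx1-deficient minus alpha was 0.65 (SE 0.22, 95% interval 0.19 to 1.11, limma adjusted p = 0.567) with all arrays, 0.89 without the array labelled alpha replicate 2 (limma adjusted p = 0.00601) and 0.80 without the array labelled Pdx1-deficient replicate 1 as well (limma adjusted p = 0.0105). Pdx1-deficient minus beta was -0.13 (SE 0.22), or -0.22 without the array labelled Pdx1-deficient replicate 1.

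Met and Egfr, the receptors for hepatocyte growth factor and for the epidermal growth factor family, had lower alpha than beta signals that did not overlap but missed the threshold. Met read 6.20, 6.71, 6.90, 5.79 and 5.88 in Pdx1-deficient arrays, 6.05, 6.30, 6.06, 6.47 and 6.05 in alpha arrays, and 6.67, 6.60, 7.26, 7.33 and 6.85 in beta arrays. The Pdx1-deficient arrays were spread over both other groups. Alpha minus beta was -0.76 (SE 0.21, 95% interval -1.21 to -0.30, limma adjusted p = 0.0581), and it passed without Pdx1-deficient replicate 3 (limma adjusted p = 0.0436) or replicate 4 (limma adjusted p = 0.0446). Pdx1-deficient minus alpha was 0.11 (limma adjusted p = 0.989) and Pdx1-deficient minus beta -0.64 (SE 0.21).

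Egfr read 7.27, 6.30, 6.34, 6.50 and 6.27 in Pdx1-deficient arrays, 6.49, 6.49, 5.92, 6.0 and 6.20 in alpha arrays, and 7.15, 6.71, 7.16, 7.16 and 6.50 in beta arrays. Alpha and beta arrays came as near as 6.49 and 6.50, and in the Pdx1-deficient group replicate 1 stood above the others and above every beta array. Alpha minus beta was -0.72 (SE 0.20, 95% interval -1.14 to -0.29, limma adjusted p = 0.0567), and it passed without the array labelled alpha replicate 2 (limma adjusted p = 0.0388) or that labelled Pdx1-deficient replicate 1 (limma adjusted p = 0.0199). Pdx1-deficient minus alpha was 0.31 (95% interval -0.11 to 0.74, limma adjusted p = 0.95). Pdx1-deficient minus beta was -0.40 (SE 0.20), or -0.59 without the array labelled Pdx1-deficient replicate 1.

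**Figure D2:**
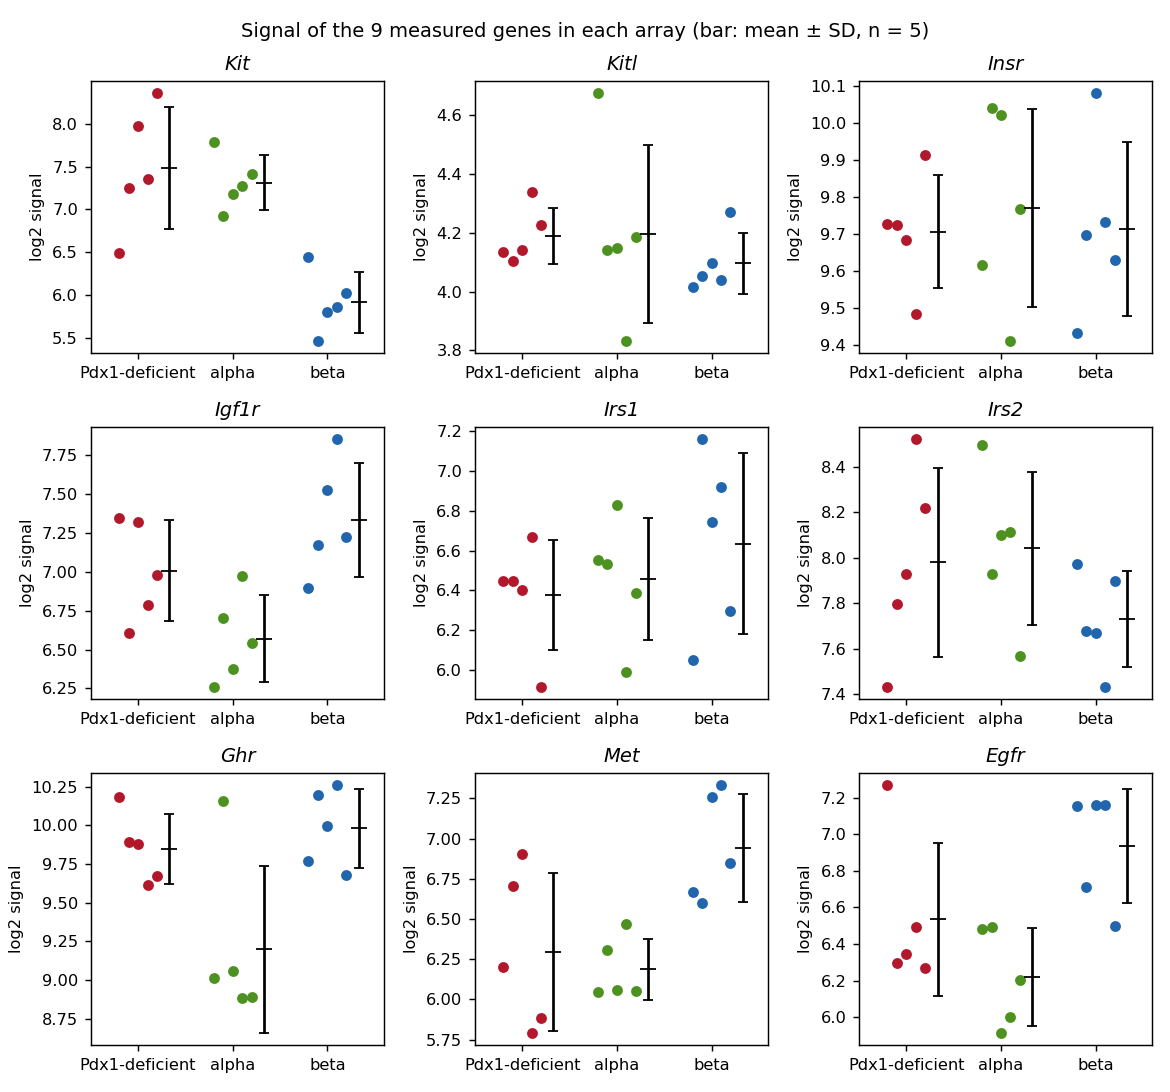
Log2 signal of each of the 9 measured members in every array, 1 panel per gene, with Pdx1-deficient, alpha and beta groups from left to right. Points are arrays and bars are group means ± SD. Kit is the member whose beta arrays lie below all others, and 1 alpha array of Ghr, at 10.16, stands apart from the other 4.

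In order of group means, Kit ran from Pdx1-deficient through alpha to beta cells, downward. Igf1r, Ghr, Met and Egfr ran from beta through Pdx1-deficient to alpha cells, and their Pdx1-deficient means differed from the alpha means by 0.11 to 0.65. With all arrays in the fit, neither pair of neighbours in those 4 orders was past the threshold. The other members had the orders alpha, Pdx1-deficient, beta (Kitl and Irs2), alpha, beta, Pdx1-deficient (Insr) and beta, alpha, Pdx1-deficient (Irs1), also with no pair of neighbours past it.

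Counted together, 2 of 9 members were past the threshold between alpha and beta cells, Kit higher and Igf1r lower in alpha cells, where 4.04% of all genes passed (0.893% higher and 3.15% lower). Kit enters this count through beta arrays that also served to select it. Among the members tested here, Igf1r alone was past the threshold. The count ran from 1 to 4 when single arrays were left out: it was 1, Kit alone, without any 1 of beta replicates 2, 3, 4 and 5 or alpha replicates 1, 3 and 5, and 4 without alpha replicate 2. The arrays of alpha and beta cells did not overlap for 3 of 9 members, Kit higher and Met and Egfr lower in alpha cells, and for 6.34% of all genes (2.29% higher, 4.05% lower). The median difference of alpha from beta cells was -0.18 over the members and 0.04 over all genes. Between Pdx1-deficient and alpha cells limma passed 0 of 9 members and 0% of all genes. At an unadjusted p under 0.05, limma gave 2 members, Igf1r and Ghr, and 1197 genes. Arrays of Pdx1-deficient and alpha cells did not overlap for 0 of 9 members and 0.637% of all genes, and the medians were 0.11 over the members and 0.02 over all genes.

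Between Pdx1-deficient and beta cells, the contrast behind the choice of Kit, 1 of 9 members (Kit, higher) was past the threshold, where 1.09% of all genes were (0.16% higher, 0.928% lower). The arrays did not overlap for 1 of 9 members, again Kit, where 5.96% of all genes did not (2.77% higher, 3.18% lower). Nothing is read from these counts. Both contrasts with beta cells use the same 5 beta arrays, so their differences are shown side by side and were not correlated.

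**Figure D3:**
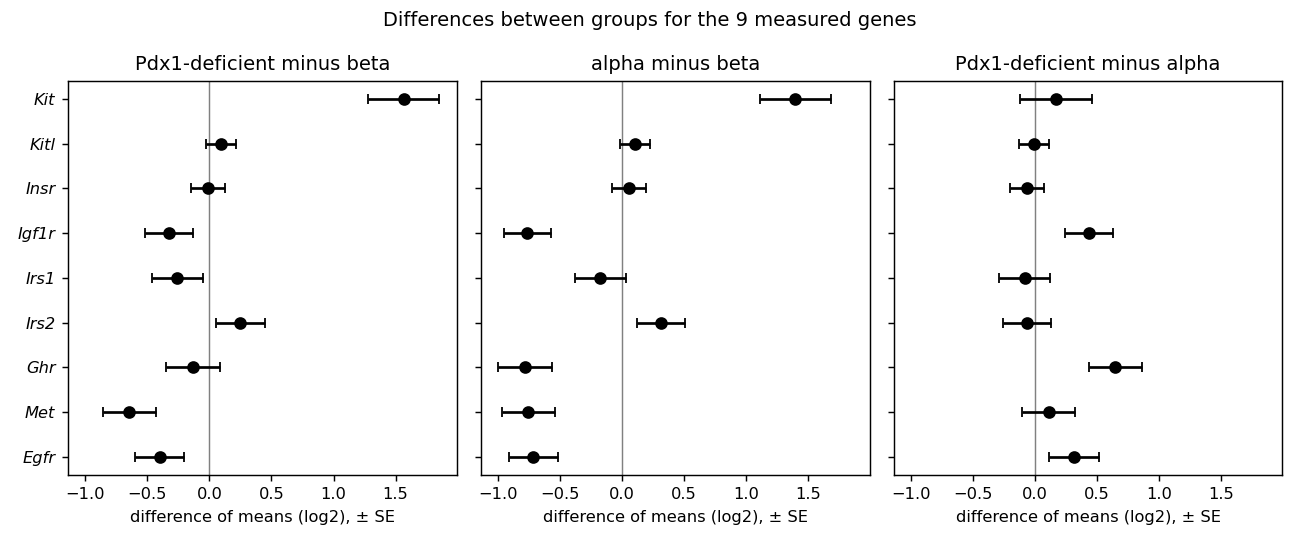
Difference of group means (log2) for each member in the 3 comparisons, with bars for the SE from limma on either side. Between alpha and beta cells Kit lies at 1.39 and Ghr, Igf1r, Met and Egfr lie between -0.78 and -0.72. The 95% intervals are wider than the bars and are not drawn. Between Pdx1-deficient and alpha cells only the 95% intervals of Igf1r and Ghr leave 0 out.

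Other genes of these pathways were described through 6 lists, of which 161 of 181 genes were measured. Alpha cells differed from beta cells for 7 of the 161 (4.35%, 1 higher and 6 lower, beside 4.04% of all genes). For Pdx1-deficient minus beta, 3 of the 161 (1.86%, all lower, beside 1.09%) were past the threshold, and for Pdx1-deficient minus alpha 0 were. Without both arrays in doubt, the counts were 15 for alpha minus beta (4 higher, 11 lower, beside 7.15% of all genes), 3 for Pdx1-deficient minus beta (1.86%, below the 3.14% of all genes in that fit) and 5 for Pdx1-deficient minus alpha (beside 0.888%). Those 5, picked out after their values were seen, were Insrr and Ntrk2, higher in Pdx1-deficient cells, and Grb10, Lrig1 and Il6st, lower.

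Of 51 other receptor tyrosine kinases, 3 fell and 0 rose in alpha compared with beta cells, with a list median of 0.10. Ntrk2, the receptor for brain-derived neurotrophic factor, averaged 6.27 ± 0.17 in Pdx1-deficient, 5.83 ± 0.33 in alpha and 7.18 ± 0.17 in beta arrays (SD, n = 5 each). Its difference of alpha from beta cells was -1.35 (limma adjusted p = 0.000727), kept in all 15 fits that leave out an array. Pdx1-deficient minus alpha was 0.44 for Ntrk2 (limma adjusted p = 0.533), and it passed without alpha replicate 2 (limma adjusted p = 0.0238). In Pdx1-deficient minus beta Ntrk2 was the single gene of the list counted as past the threshold, at -0.90, and it was not past it without any 1 of beta replicates 1, 4 and 5 or Pdx1-deficient replicates 4 and 5.

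Insrr, the insulin receptor-related receptor, which senses alkaline pH, averaged 8.77 ± 0.10 in Pdx1-deficient, 7.60 ± 0.65 in alpha and 8.91 ± 0.25 in beta arrays (SD, n = 5 each). Alpha minus beta was -1.32 (limma adjusted p = 0.00872), kept in all 15 fits that leave out an array. The Pdx1-deficient arrays, 8.66 to 8.87, lay above all alpha arrays, 6.77 to 8.57, with a difference of 1.17 (limma adjusted p = 0.264) that became 1.42 without the array labelled alpha replicate 2 (limma adjusted p = 0.000774). Ret, the receptor for the GDNF family, differed by -0.64 between alpha and beta cells (limma adjusted p = 0.0473). It passed in 3 of 15 fits that leave out an array, those without beta replicate 2, alpha replicate 2 or Pdx1-deficient replicate 4, with a limma adjusted p up to 0.115.

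Of 27 adaptors and brakes of receptor signalling, 1 rose and 3 fell in alpha compared with beta cells, with a list median of -0.02. Grb10, an adaptor that inhibits the insulin and IGF1 receptors, averaged 7.64 ± 0.15 in Pdx1-deficient, 8.39 ± 0.68 in alpha and 7.35 ± 0.24 in beta arrays (SD, n = 5 each), and rose by 1.04 in alpha cells (limma adjusted p = 0.0324). That call was lost without any 1 of beta replicates 1, 3, 4 and 5 or alpha replicates 1, 3, 4 and 5 (limma adjusted p up to 0.0788). Pdx1-deficient minus alpha was -0.75 for Grb10 (limma adjusted p = 0.558), and -1.04 without the array labelled alpha replicate 2 (limma adjusted p = 0.00324).

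Igf2r, which clears IGF2 and sorts lysosomal enzymes, averaged 8.52 ± 0.16 in Pdx1-deficient, 8.27 ± 0.21 in alpha and 9.04 ± 0.18 in beta arrays (SD, n = 5 each), with alpha minus beta at -0.77 (limma adjusted p = 0.0052). Ptpn11, the gene for the phosphatase SHP2 that carries receptor signals to RAS, averaged 8.92 ± 0.13 in Pdx1-deficient, 8.66 ± 0.25 in alpha and 9.53 ± 0.27 in beta arrays (SD, n = 5 each), with alpha minus beta at -0.88 (limma adjusted p = 0.00524). Both calls were kept in all 15 fits that leave out an array. Shc1, an adaptor that links receptors to RAS, averaged 7.98 ± 0.44, 7.53 ± 0.24 and 8.51 ± 0.38 in Pdx1-deficient, alpha and beta arrays (SD, n = 5 each). In alpha cells it fell by 0.97 relative to beta cells (limma adjusted p = 0.0218), a call lost without any 1 of beta replicates 1 and 5 or alpha replicates 1 and 4 (limma adjusted p up to 0.0563). For Pdx1-deficient minus beta, Ptpn11 at -0.61 and Igf2r at -0.51 were past the threshold; Ptpn11 stayed past it in 4 and Igf2r in 3 of the 15 fits that leave out an array.

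The remaining lists had no gene past the threshold in any of the 3 comparisons. Among 20 ligands and IGF-binding proteins, the smallest p-values between alpha and beta cells belonged to Igfals, which stabilises IGF in complexes (-0.76, limma adjusted p = 0.054), and Egf (-0.45, limma adjusted p = 0.0708). Igfals was past the threshold without any 1 of beta replicate 2, alpha replicate 2 or Pdx1-deficient replicate 1, and Egf without beta replicate 1 (limma adjusted p down to 0.0372 and 0.0292). In Pdx1-deficient minus beta Igfals was at -0.65. Among fits that leave out 1 array, it was past the threshold there only without Pdx1-deficient replicate 1. Ins2, an insulin gene and so a ligand gene of Insr, averaged 12.03 in Pdx1-deficient, 12.00 in alpha and 11.90 in beta arrays, near the top of the array's range.

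Of 27 genes of PI3-kinase, AKT and mTOR signalling, 19 averaged lower in alpha and 21 lower in Pdx1-deficient than in beta arrays. The list medians were -0.13 and -0.11, where those of all genes were 0.04 and 0.06. List means per array were 7.22 to 7.36 in Pdx1-deficient, 7.18 to 7.33 in alpha and 7.37 to 7.55 in beta arrays. Mlst8, an mTOR complex subunit, differed by -0.57 between alpha and beta cells (limma adjusted p = 0.069). Pik3r1, the regulatory subunit of PI3-kinase, differed by -0.59 (limma adjusted p = 0.152). Both passed without alpha replicate 2 (limma adjusted p of 0.0239 for Mlst8 and 0.0137 for Pik3r1). Akt2, the main AKT of insulin action, averaged 7.74 ± 0.78 in Pdx1-deficient and 8.79 ± 0.52 in beta arrays (SD, n = 5 each), which overlapped. The difference was -1.06, and -1.19 to -0.72 when single arrays were left out. It was not past the threshold. Among 9 RAS and MAPK genes, Nf1, which switches RAS off, was at 0.59 in alpha minus beta (limma adjusted p = 0.0803) and passed without alpha replicate 2 (limma adjusted p = 0.0478). Among 27 JAK and STAT genes and targets of the prolactin receptor, Cish, an inhibitor induced by STAT5, was at -0.50 in alpha minus beta (limma adjusted p = 0.0906), and Men1, the menin gene, at -0.57 (limma adjusted p = 0.152). In Pdx1-deficient minus alpha, Il6st, the shared receptor subunit of the IL-6 family, was at -0.95 (limma adjusted p = 0.358), and it passed without alpha replicate 2 (limma adjusted p = 0.0372).

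**Figure D4:**
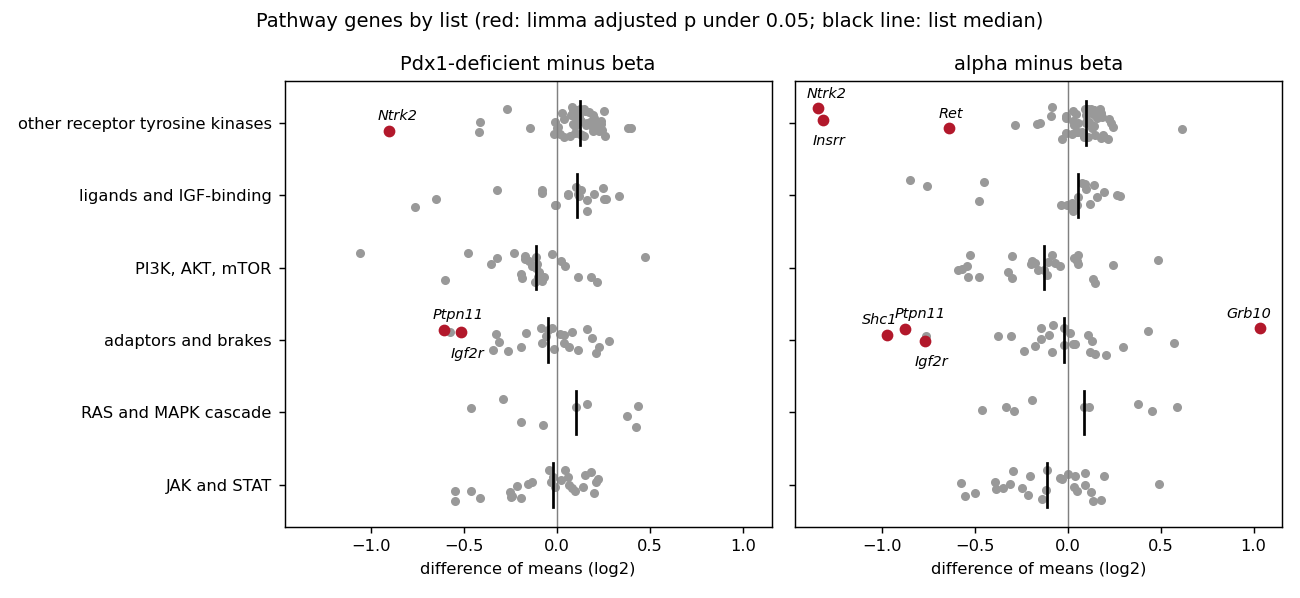
Difference of group means (log2) for each measured gene of the 6 pathway lists, for Pdx1-deficient minus beta and alpha minus beta; each point is a gene, red points are past the limma threshold and black lines are list medians. Most genes sit near 0, and red points are Ntrk2, Ptpn11 and Igf2r on the left and those plus Insrr, Ret, Shc1 and Grb10 on the right.

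Kit also marks mast cells, so markers of other cells were read beside it. The 8 mast-cell markers averaged 4.54 to 4.79 in Pdx1-deficient arrays, 4.53 to 4.68 in alpha arrays and 4.48 to 4.55 in beta arrays, and 0 of 8 passed in any comparison. All 8 averaged higher in Pdx1-deficient than in beta arrays, with a median difference of 0.15, where the median of all genes was 0.06. The 25th percentile of the array also differed by group. It was 4.668 to 4.805 in Pdx1-deficient, 4.659 to 4.76 in alpha and 4.555 to 4.658 in beta arrays. The part of this offset of low signals in the mast-cell marker differences was not tested. In each group the tryptase genes Tpsb2 and Tpsab1 and the histidine decarboxylase gene Hdc averaged above 4.8, the highest 25th percentile of any array. The chymase gene Cma1 averaged 4.77 in Pdx1-deficient, 4.68 in alpha and 4.61 in beta arrays. Its means lay within the range of those percentiles, 4.55 to 4.8. Of the 8 markers, 4 lay below the 25th percentile of their array in every Pdx1-deficient array. Tpsab1 averaged 5.57 ± 0.16 in Pdx1-deficient, 5.54 ± 0.19 in alpha and 5.29 ± 0.06 in beta arrays (SD, n = 5 each), and its Pdx1-deficient arrays lay above all beta arrays. The mast-cell protease gene Cpa3 averaged 3.89, 3.90 and 3.80 and the IgE receptor gene Fcer1a 3.61, 3.53 and 3.45 in Pdx1-deficient, alpha and beta arrays. The part of mast-cell RNA in the Kit differences was not tested. The 8 endothelial markers had means of 5.08 to 5.34, 5.02 to 5.41 and 5.03 to 5.20, and the 8 leukocyte markers 4.94 to 5.32, 5.12 to 5.34 and 4.98 to 5.44 in the same order of groups, with 0 passing.

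The 10 stromal markers had means of 5.51 to 5.74 in Pdx1-deficient arrays, 5.32 to 6.01 in alpha arrays and 5.24 to 5.48 in beta arrays, with 1 of 10, the pericyte gene Rgs5, higher in alpha than in beta cells. The 10 acinar markers had means of 6.16 to 6.81, 6.19 to 10.47 and 6.32 to 6.92 in Pdx1-deficient, alpha and beta arrays. Of these 1, Bhlha15, a secretory-cell transcription factor gene, was lower in alpha than in beta cells (-1.16, limma adjusted p = 0.00632) and counted as lower in Pdx1-deficient than in beta cells (-1.09). The 6 duct markers had means of 6.28 to 6.52, 6.16 to 6.45 and 6.25 to 6.64 in those groups, and 1, the claudin gene Cldn7, was lower in alpha than in beta cells (-0.75, limma adjusted p = 0.0476, and 0.0501 without alpha replicate 2). The 5 delta, PP and epsilon cell markers had means of 9.03 to 9.80, 9.46 to 10.33 and 9.41 to 9.97 in those groups. All 5 averaged higher in alpha than in beta arrays, with a median difference of 0.38, where that of all genes was 0.04. Of these 1, Rbp4, was past the threshold (1.04, limma adjusted p = 0.0462). Without both arrays in doubt, 2 stromal markers (Rgs5 and Sparc) were higher and 2 duct markers (Krt7 and Cldn7) lower in alpha than in beta cells. The part of stromal, acinar and other islet-cell RNA in the alpha values was not tested. Alpha replicate 5, with the acinar signal, read 7.42 for Kit, among the other alpha arrays.

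**Figure D5:**
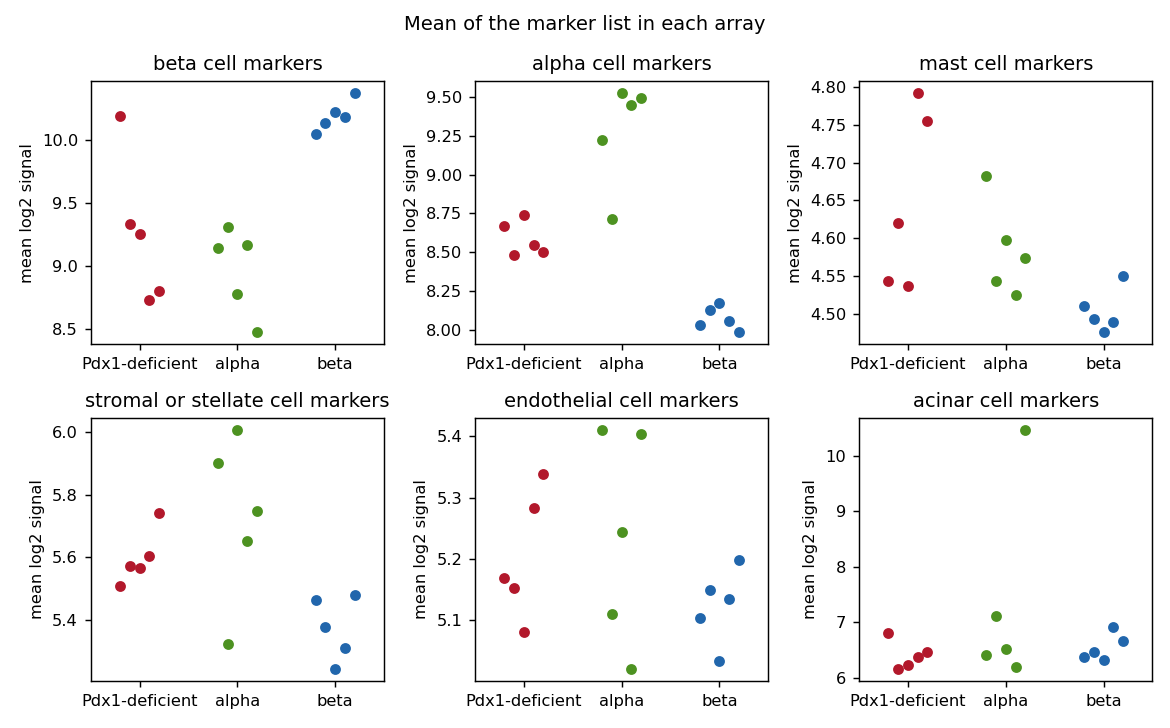
Mean log2 signal of each marker list in every array for beta, alpha, mast, stromal, endothelial and acinar cell markers, with groups from left to right as Pdx1-deficient, alpha and beta. Mast-cell means stay between 4.48 and 4.79 in all 15 arrays, and 1 alpha array reaches 10.47 for acinar markers.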

How the data were processed

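RNA of 15 mouse islet-cell samples, 5 per group by title, was measured on Affymetrix Mouse Gene 1.0 ST arrays. The deposited values are normalized signals on a log2 scale, as their range shows; Affymetrix Expression Console, version not stated, is named in the submitters' processing notes. The sources used here do not give the summarization, background correction, log base or build, and folds hold only if the base is 2. Of 35556 transcript clusters, 21789 carried 1 gene symbol in the platform annotation, 1621 several and 12146 none; only the first kind was named, 21698 of them matched the RefSeq gene table, and each of 19938 genes was represented by its cluster with the highest mean over 15 arrays. No value was missing and no 2 arrays were identical. The number of arrays limits the precision.

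Differences were tested with limma 3.58.1 (lmFit, eBayes) in R 4.3.3, with 3 group means over all arrays, and p-values were adjusted over the 19938 genes (Benjamini-Hochberg, threshold 0.05). The scripts were tested on simulated data. Kit's p-values, an exact permutation test among them, are not given, because the beta and the Pdx1-deficient arrays served to select it. Named genes are the members, Pdx1, the 6 genes most correlated with Kit (above the median of all genes, no Gm or Rik symbols), and per list and comparison up to 4 genes past the threshold or, with none, up to 2 of the smallest p; others are said to be picked after their values were seen, and Ins2 and the marker genes named with values are such picks. The members and lists were chosen with earlier results of these data known. Alternatives were the scaling, dim genes, moderation, arrays in the fit, the replicate number as a block and all clusters. The second clusters of Insr and Irs1 were added after the data were seen. No coordinates are given for clusters. Promoter windows are RefSeq, GRCm38.p6.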

Additional observations from a re-analysis of the deposited data

Results flagged for a closer look

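Of 30 sets of 5 arrays examined for a single array standing apart (the members and Pdx1 in each group), 2 had one, and chance gives about 1 in 20. Ghr read 10.16 in the array labelled alpha replicate 2, where the other alpha arrays read 8.88 to 9.06. The same array had the lowest alpha-cell marker mean of its group. Egfr read 7.27 in the array labelled Pdx1-deficient replicate 1, where the other arrays of that group read 6.27 to 6.50. That array also had the beta-like Pdx1 signal of 9.12. The part of either in the differences was not tested beyond leaving the array out, as given with Ghr and Egfr.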

How the results depend on the processing

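The Kit difference of alpha from beta cells kept its direction in all 23 alternatives. The count of members past the threshold in alpha minus beta, 2, became 5 with each array's median subtracted and 5 with dim genes left out (Kit, Igf1r, Ghr, Met and Egfr both times), 4 without the 2 arrays in doubt (Kit, Igf1r, Ghr and Egfr), 1 with every cluster tested (Kit), and 1 to 4 without single arrays. Over all genes 806 of 19938 passed there, 1182 with medians subtracted and 942 of 14953 with dim genes left out. With only the 2 groups in the fit it was 3 (Kit, Met and Egfr), and with the replicate block it was 2 (Kit and Egfr). In Pdx1-deficient minus beta the count of 1 became 0 with values quantile normalized again, with only the 2 groups, with the replicate block and with every cluster, and 0 to 1 without single arrays (0 without any 1 of beta replicates 1, 3, 4 and 5 or Pdx1-deficient replicates 2, 4 and 5). In Pdx1-deficient minus alpha the count of 0 became 1 (Ghr) without the 2 arrays in doubt and 0 to 1 without single arrays.

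Over all genes, the 217 calls in Pdx1-deficient minus beta (32 higher, 185 lower) became 615 with medians subtracted (26 higher, 589 lower), 29 quantile normalized again (5 higher, 24 lower), 121 with trend and robust moderation, 89 with only the 2 groups, 626 without the arrays in doubt, 8 with the replicate block, 25 with every cluster and 0 to 548 without single arrays. The 806 in alpha minus beta became 1425 without the arrays in doubt and 328 to 1430 without single arrays. The 0 in Pdx1-deficient minus alpha became 1 with dim genes left out, 1 with trend and robust moderation, 177 without the arrays in doubt and 0 to 145 without single arrays. The causes were not tested. Same-numbered arrays had correlations of deviations of -0.12 to 0.114 in Pdx1-deficient minus beta, 0.005 to 0.224 in alpha minus beta and -0.172 to 0.221 in Pdx1-deficient minus alpha, over 0.1 in 1, 3 and 1 of 5 pairs, and 1 of 5 matched its own number best in each, so the numbers were not taken as pairs. With the replicate block, Igf1r had a limma adjusted p of 0.0596 and Egfr one of 0.0464 in alpha minus beta. The scalings moved the median of all genes by under 0.1. With medians subtracted it turned from 0.061 to -0.038 in Pdx1-deficient minus beta and from 0.0412 to -0.0449 in alpha minus beta. Array medians were 5.964 to 6.055 in Pdx1-deficient, 5.93 to 6.022 in alpha and 5.882 to 5.926 in beta arrays.

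Differences that turned in sign had not passed in any setting. Kitl in alpha minus beta was -0.0192 quantile normalized again and -0.0186 to 0.19 without single arrays, and had no value with dim genes left out. Insr in alpha minus beta was -0.0297 with medians subtracted, -0.0107 without the arrays in doubt, -0.0483 in its other cluster and -0.0138 to 0.15 without single arrays. In Pdx1-deficient minus alpha, Irs2 was 0.0463 without the arrays in doubt and Irs1 0.28 in its other cluster. Without single arrays that comparison gave -0.0474 to 0.42 for Kit, -0.10 to 0.11 for Kitl, -0.15 to 0.0023 for Insr, -0.20 to 0.0323 for Irs1, -0.20 to 0.0741 for Irs2 and -0.0404 to 0.24 for Met.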
